A study of Mus musculus with 8 samples.

Results

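The thrombospondin-repeat matrix proteins are a set of 9 genes, the spondins Spon1 and Spon2, the thrombospondin type 1 domain genes Thsd7a, Thsd7b and Thsd4, and the thrombospondins Thbs1, Thbs2, Thbs3 and Thbs4. They are 9 of the 49315 genes in the count files and were found by gene symbol. The set was chosen because Spon1 and Thsd7a were higher in mutant than in wild-type hearts, so the genotype values of its members are given as a description, with no p-value. The hearts came from mouse embryos at stage E18.5, late in gestation, and each of the 8 was sequenced as a separate RNA library. The 4 mutant hearts carried the M195I change in both copies of CHD4, the ATPase of the nucleosome remodelling and deacetylase complex, and the other 4 were wild type (WT). The labels name no strain, litter or treatment, and they do not say whether any hearts shared a litter, so p-values and errors measure only the spread between these samples, which may be technical.

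Type 1 thrombospondin repeats are small folded units of secreted and membrane proteins that bind other matrix proteins, growth factors and cell surface receptors. The thrombospondins are assembled into trimers (Thbs1, Thbs2) or pentamers (Thbs3, Thbs4) and act at the contact between cells and matrix, where Thbs1 is known for activating latent TGF-beta and for restraining vessel growth. Spondins were first described in the embryonic floor plate and in axon guidance, Thsd7a is a transmembrane protein known from endothelial cells and kidney podocytes, and Thsd4, also called ADAMTSL6, binds fibrillin microfibrils.

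The repeat typically opens with tryptophans spaced by 2 residues, and tryptophan has the single codon TGG, so a repeat can leave the pattern TGGNNNNNNTGG in the reading frame. That pattern was searched in frame, on the coding strand only, in the longest complete coding sequence of each gene in GENCODE M21, and overlapping copies were counted separately. Of the 9 genes, 7 held at least 1 copy and 2, Thbs3 and Thbs4, held none. Spon1, Thsd7a and Thsd7b held 7 copies each, and Thbs1 and Thbs2 held 6 each. Thsd4 held 2 that overlap, at codons 57 and 60, and Spon2 held 1. At least 1 copy was found in 9.18% of 21499 genes and at least 5 copies in 22 genes, 5 of which are members of the set. Comp, the fifth thrombospondin and no member, also held none. The pattern was thus found at several sites in 5 members and at 1 site each in Thsd4 and Spon2, which it alone does not mark as holders of the repeat. Thbs3 and Thbs4 belong to the set as thrombospondins without the repeat signature. The 4 stretches shown are the 135 coding bases from the first copy that is followed within 6 codons by a cysteine codon, in the genes whose levels differed most (Spon1, Thsd7a) and in their closest comparators by name or by repeat (Spon2, Thbs1). Capitals mark the TGG codons of the pattern.
Spon1: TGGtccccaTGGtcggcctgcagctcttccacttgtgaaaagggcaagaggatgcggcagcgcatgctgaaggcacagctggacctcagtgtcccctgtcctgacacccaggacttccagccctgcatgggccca
Thsd7a: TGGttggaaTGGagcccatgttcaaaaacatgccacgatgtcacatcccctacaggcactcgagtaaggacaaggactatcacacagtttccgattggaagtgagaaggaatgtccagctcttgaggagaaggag
Spon2: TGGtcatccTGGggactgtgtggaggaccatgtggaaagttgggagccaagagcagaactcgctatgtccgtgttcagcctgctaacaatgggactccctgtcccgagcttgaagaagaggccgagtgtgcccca
Thbs1: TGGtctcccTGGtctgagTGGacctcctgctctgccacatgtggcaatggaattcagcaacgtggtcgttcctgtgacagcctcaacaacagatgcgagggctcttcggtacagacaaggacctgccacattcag
All are read 5′ to 3′ on the coding strand from transcripts on GRCm38. The Spon1 stretch covers codons 448 to 492 in exon 11 of 16 (chr7:114031797-114031931, plus strand). Its first copy in the gene, at codon 289, lacks the cysteine codon, and its other 6 copies have it. The Thsd7a stretch covers codons 355 to 399 in exon 3 of 28 (chr6:12503957-12504091, minus strand). The Spon2 stretch covers codons 282 to 326 in exon 6 of 6 (chr5:33214483-33214617, minus strand). The Thbs1 stretch covers codons 383 to 427 in exon 8 of 22 (chr2:118117507-118117641, plus strand) and opens with 3 evenly spaced TGG codons, which count as 2 overlapping copies.

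WT libraries held 18375951 to 20815388 counts and mutant libraries 18673488 to 21341235. Markers of cardiomyocytes were the most abundant of the marker lists in every library, with a summed level between 23000 and 30570 CPM (a gene's count relative to the total of its library). Libraries differed most in airway epithelium: Scgb3a2, a secretoglobin of airway cells, reached 176 to 498 CPM of library totals in 5 libraries and only 0.328 to 6.48 CPM in the other 3, WT replicate 2 and mutant replicates 1 and 2. Counts of Y-linked genes summed to 124 CPM in WT replicate 4 and to between 229 and 241 CPM in the other 7 libraries, and Xist was between 1.25 and 1.98 CPM in all 8. Chd4 itself was at 452 ± 6.37 CPM in WT and 482 ± 8.48 CPM in the mutants (SD, n = 4 each; log2 fold change 0.09 ± 0.03, edgeR adjusted p = 0.094). DESeq2 and library totals did call it higher, and gene counts cannot show the changed codon.

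Levels are in CPM scaled by TMM, the trimmed mean of M-values, unless stated otherwise, and each log2 fold change compares mutants with WT (positive where mutants were higher) and carries its standard error. All 9 genes passed the filter on low counts. In the fit of edgeR's quasi-likelihood test over 16372 genes, 4 of the 9 were called at an adjusted p under 0.05, where 13.2% of all tested genes were. Spon1, Thsd7a and Thbs4 were called higher (5.75% of all genes) and Thbs3 lower (7.49% of all genes). The remaining 5 were not called, and 4 of these had a log2 fold change smaller than 0.05 in size. Over all genes 942 were called higher and 1226 lower, a split that became 1856 and 858 with library totals in place of TMM. The median log2 fold change was 0.00 over the 9 genes and 0.00 over all tested genes. For 3 members every mutant library was above every WT library, as for 8.8% of all tested genes, and for 0 members every mutant library was below, as for 9.77% of all tested genes. Because the set was chosen on this contrast, nothing is read from these shares. In whole-heart RNA, fewer cells of a type and less RNA per cell cannot be told apart.

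**Figure D1:**
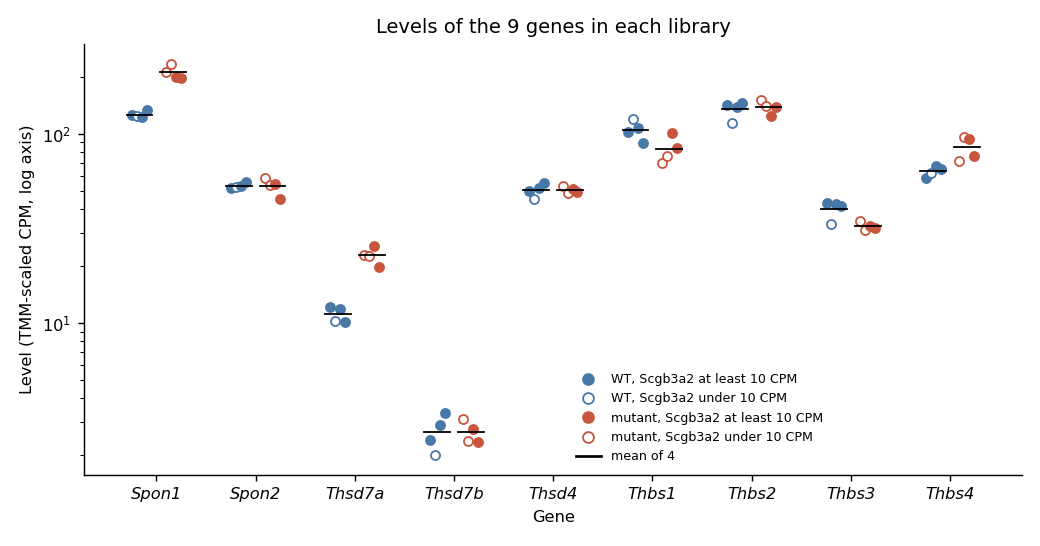
Level of each of the 9 genes in each library, in TMM-scaled CPM on a log axis, with WT in blue and mutants in red, open points for the 3 libraries with little airway RNA and a bar for the mean of 4. Spon1, Thsd7a and Thbs4 have all 4 mutant points above all 4 WT points, and the points of the other 6 genes overlap between genotypes.

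Spon1 (F-spondin, ENSMUSG00000038156) lies on chromosome 7 from 113765998 to 114043370 on GRCm38, plus strand. It is a secreted matrix protein with an amino-terminal reelin-like and spondin domain ahead of its repeats. In WT replicates 1 to 4 it was at 126, 124, 123 and 133 CPM. In mutant replicates 1 to 4 it was at 213, 235, 199 and 198 CPM. The WT hearts were tightly grouped, the mutants more widely, and the lowest mutant lay well above the highest WT heart. The means were 126 ± 4.47 and 211 ± 17.3 CPM (SD, n = 4 each), a log2 fold change of 0.74 ± 0.05. The difference ranged from 0.69 to 0.78 as each library was left out in turn.

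Spon2 (mindin, ENSMUSG00000037379; chromosome 5, 33198184 to 33218455, minus strand), the other spondin, is a secreted protein known from innate immune recognition. It was at 51.8, 52.0, 52.7 and 55.5 CPM in WT replicates 1 to 4 and at 58.4, 53.5, 54.1 and 45.1 CPM in mutant replicates 1 to 4. The mutant values lay on both sides of the WT values. The means of 53.0 ± 1.70 and 52.7 ± 5.55 CPM gave a log2 fold change of -0.01 ± 0.07, which is under the spread between replicates. The difference between the estimates of Spon1 and Spon2 was not tested, because Spon1 was chosen for its own.

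Thsd7a (ENSMUSG00000032625; chromosome 6, 12311610 to 12749410, minus strand) had the largest ratio between genotypes of the 9 genes. It was at 12.1, 10.3, 11.9 and 10.2 CPM in WT replicates 1 to 4. In mutant replicates 1 to 4 it was at 22.8, 22.6, 25.6 and 19.9 CPM. Every mutant heart was above every WT heart, with mutant replicate 4 the lowest of the mutants. The means were 11.1 ± 1.03 and 22.7 ± 2.36 CPM (SD, n = 4 each), a ratio of 2.05 and a log2 fold change of 1.03 ± 0.09. It rested on 183 to 240 counts in WT and 414 to 497 counts in the mutants.

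Thsd7b, the paralogue of Thsd7a (ENSMUSG00000042581; chromosome 1, 129273302 to 130219278, plus strand), was the scarcest member, with 40 to 60 counts in any library. It was at 2.39, 1.998, 2.87 and 3.33 CPM in WT replicates 1 to 4 and at 3.12, 2.37, 2.73 and 2.35 CPM in the mutants. The mutant values all fell inside the WT range. The log2 fold change was 0.00 ± 0.19, the widest standard error of the 9 genes, so a small difference was not detectable at this depth. Thsd4 (ENSMUSG00000032289; chromosome 9, 59966931 to 60522046, minus strand) was between 45.1 and 55.1 CPM in WT and between 48.8 and 52.9 CPM in the mutants. Its mutant range fell inside its WT range as well, with a log2 fold change of 0.00 ± 0.06. Among the 3 Thsd genes the genotypes were thus apart for Thsd7a and overlapped for Thsd7b and Thsd4.

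**Figure D2:**
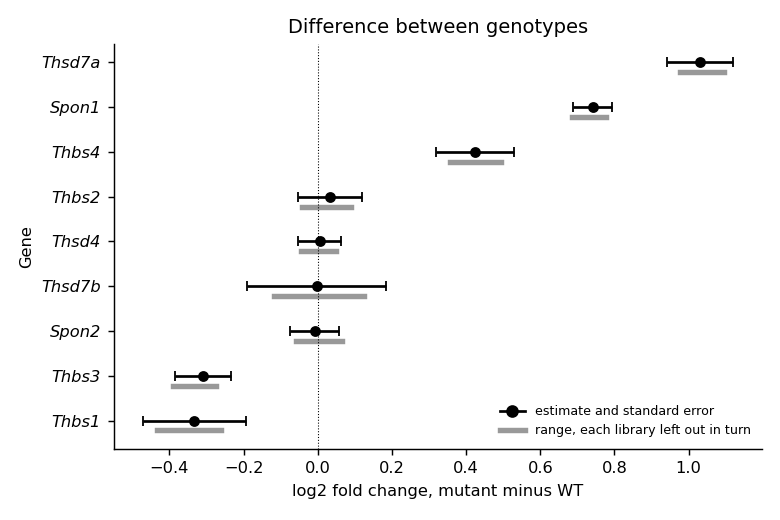
Log2 fold change, mutant minus WT, of each gene with its standard error (black), and the range of the estimate when each of the 8 libraries was left out in turn (grey). Thsd7a at 1.03, Spon1 at 0.74 and Thbs4 at 0.42 lie to the right of 0, Thbs3 at -0.31 and Thbs1 at -0.33 to the left, and the other 4 genes lie within 0.05 of 0.

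The trimer-forming thrombospondins did not separate the genotypes. Thbs1 (ENSMUSG00000040152; chromosome 2, 118111876 to 118127133, plus strand) was at 102, 119, 107 and 89.2 CPM in WT replicates 1 to 4. In mutant replicates 1 to 4 it was at 70.0, 76.6, 101 and 84.0 CPM. Mutant replicate 3 lay inside the WT range and the other 3 mutants lay below it. The means were 104 ± 12.3 and 82.9 ± 13.5 CPM (SD, n = 4 each), with a log2 fold change of -0.33 ± 0.14 that was not called. Without mutant replicate 3 the estimate was -0.43 and was called. Thbs2 (ENSMUSG00000023885; chromosome 17, 14665500 to 14694262, minus strand), known for its part in collagen fibril assembly, was at 142, 114, 139 and 145 CPM in WT and at 150, 140, 124 and 138 CPM in the mutants. WT replicate 2 was its lowest library, and the genotypes overlapped, with a log2 fold change of 0.03 ± 0.09.

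The pentamer-forming thrombospondins, which lack the tryptophan pattern, had estimates of opposite sign. Thbs4 (ENSMUSG00000021702; chromosome 13, 92751590 to 92794818, minus strand), known from tendon and from the stressed heart, was at 58.4, 61.98, 67.2 and 65.2 CPM in WT replicates 1 to 4. In mutant replicates 1 to 4 it was at 71.9, 96.5, 94.2 and 76.4 CPM. The lowest mutant was close to the highest WT heart, and mutant replicates 2 and 3 stood clearly above the other two. The means were 63.2 ± 3.82 and 84.8 ± 12.4 CPM, with a log2 fold change of 0.42 ± 0.10. It was no longer called once any of the 4 WT libraries or mutant replicate 3 was left out, nor with the airway score as a covariate, with estimates from 0.36 to 0.50 over all libraries left out.

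Thbs3 (ENSMUSG00000028047; chromosome 3, 89215180 to 89226837, plus strand) was at 43.1, 33.3, 42.7 and 41.6 CPM in WT replicates 1 to 4. In mutant replicates 1 to 4 it was at 34.7, 30.8, 32.4 and 31.7 CPM. WT replicate 2 lay inside the mutant range and the other 3 WT hearts above it. The means were 40.2 ± 4.62 and 32.4 ± 1.65 CPM, with a log2 fold change of -0.31 ± 0.08. It was no longer called once WT replicate 1, 3 or 4 or mutant replicate 2, 3 or 4 was left out, with estimates from -0.39 to -0.28, nor with library totals in place of TMM (-0.26). Exons of Thbs3 share 318 bases, 6.59% of its length, with those of Mtx1 on the opposite strand, which had 396 to 562 counts per library. Whether the counting used strand is not known from these sources, and reads of Thbs3 and Mtx1 over those bases then cannot be told apart. Of the other members, only Thbs1 shares exon bases with another gene in the files, 208 bases with Gm29233, which had at most 4 counts.

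Per kilobase of exon, the scale on which levels of different genes can be compared, the WT hearts held most Thbs2 (22.8 ± 2.43 CPM per kilobase). Thbs4 (19.2 ± 1.16), Spon2 (18.0 ± 0.577) and Thbs1 (17.2 ± 2.03) followed, in CPM per kilobase, and each of these 4 overlapped its neighbour in the order. Spon1 (12.2 ± 0.431 CPM per kilobase) stood apart below them, followed by Thbs3 (8.33 ± 0.957) and Thsd4 (3.60 ± 0.301), with ranges that did not touch. Thsd7a (0.809 ± 0.0750 CPM per kilobase) and Thsd7b (0.218 ± 0.0476) were far scarcer. In the mutants the 5 most abundant were Thbs4 (25.8 ± 3.78 CPM per kilobase), Thbs2 (23.3 ± 1.83), Spon1 (20.3 ± 1.66), Spon2 (17.9 ± 1.88) and Thbs1 (13.7 ± 2.22), and each overlapped the next. Spon1 thus had rank 5 in WT and rank 3 in the mutants, while Thsd7a kept rank 8 at 1.66 ± 0.172 CPM per kilobase. The length is that of all annotated exons of a gene, so a gene read mainly as a short isoform appears scarcer than it is.

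**Figure D3:**
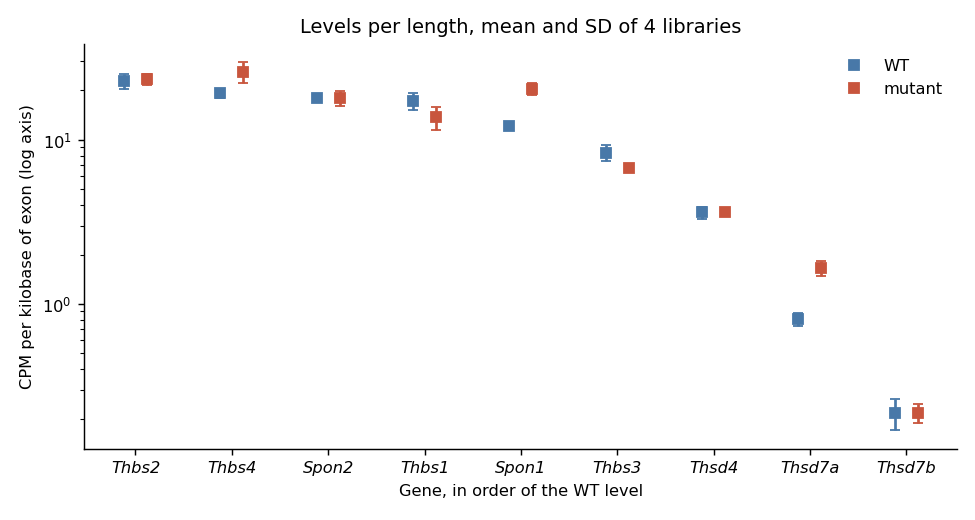
Mean level per kilobase of exon with its SD over 4 libraries, on a log axis, for WT (blue) and mutants (red), with genes in the order of their WT level. The 4 most abundant genes in WT lie between 17.2 and 22.8 CPM per kilobase, and Thsd7a and Thsd7b lie below 2 in both genotypes.

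The estimates of several members differed between libraries with and without airway RNA. Within the 5 libraries where Scgb3a2 reached 10 CPM (3 WT, 2 mutant), the log2 fold change was 0.64 ± 0.04 for Spon1, 0.99 ± 0.12 for Thsd7a and 0.42 ± 0.10 for Thbs4. Within the other 3 libraries (1 WT, 2 mutant) it was 0.86 ± 0.08 for Spon1, 1.15 ± 0.15 for Thsd7a and 0.45 ± 0.28 for Thbs4, with the lone WT library assumed to vary like the mutants. All 3 estimates were above 0 in both subsets of the libraries on which the set was chosen, so this is a description. Thbs1 went from -0.11 ± 0.12 in the first subset to -0.69 ± 0.08 in the second, Thbs3 from -0.41 ± 0.06 to -0.02 ± 0.11, and Thbs2 from -0.12 ± 0.05 to 0.36 ± 0.08. Against the calls over all 8 libraries, Thbs4 was called in neither subset, and in the second subset Thbs1 passed as lower, Thbs2 passed as higher and Thbs3 did not pass. The calls of the second subset rest on a WT arm of 1 library, and nothing is read from them. For Thbs1, Thbs2 and Thbs3 the second value rests on WT replicate 2, the lowest WT heart for Thbs2 and Thbs3 and the highest for Thbs1. The same heart had the lowest summed level of 6 fibroblast markers of all 8 libraries, 3785 CPM against 4242 to 5299 CPM in the other 7. The sum weighs abundant markers most. Tcf21, a scarcer marker of that list, was at 44.0 CPM in this heart. In WT replicates 1, 3 and 4 it was at 44.5, 46.3 and 43.2 CPM. The other markers of the list are not given singly here, and nothing is read from Tcf21 alone. The part of airway RNA and of fibroblast content in these values was not tested.

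**Figure D4:**
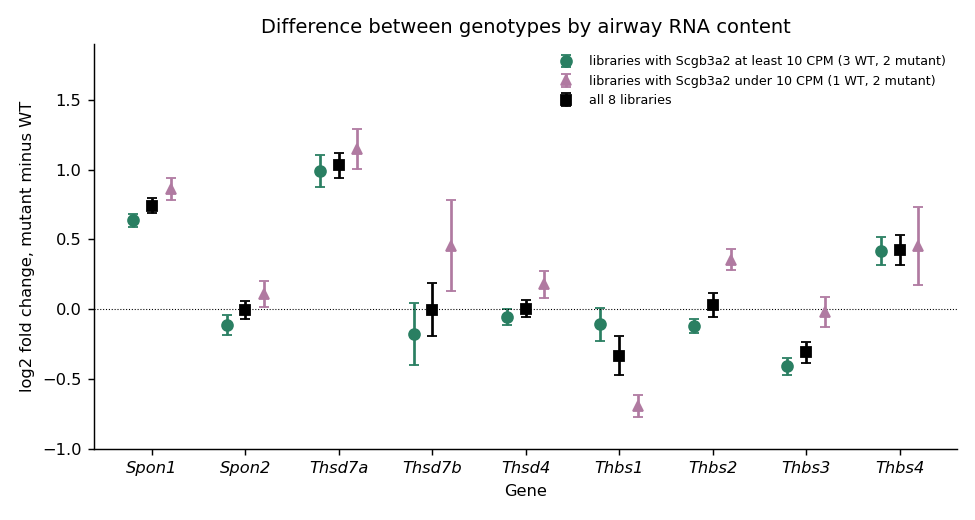
Log2 fold change, mutant minus WT, with its standard error, of each gene in all 8 libraries (black), in the 5 libraries where Scgb3a2 reached 10 CPM (green) and in the other 3 (purple, with 1 WT library). Spon1, Thsd7a and Thbs4 stay above 0 in all 3 sets, whereas Thbs1, Thbs2 and Thbs3 differ between the subsets.

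Markers of the cell types that a whole heart can hold were read beside these values. Over all tested genes, 5.75% were called higher and 7.49% lower, and single genes did not overlap between genotypes in 18.6%. Each marker list is short, and nothing is read from its calls or from sums that lie apart. Of 6 fibroblast markers, Tcf21 fell and none rose, and their summed level was 3785 to 5299 CPM in WT and 4242 to 4586 CPM in the mutants. Of 6 endothelial markers, the receptor Tek rose and the receptor Kdr fell, with sums of 1100 to 1180 CPM in WT and 1069 to 1168 CPM in the mutants. The 4 endocardial markers had 1 call in each direction, and their sums were apart, at 409 to 475 CPM in WT and 476 to 542 CPM in the mutants. The 6 smooth muscle and pericyte markers had 1 lower call, in Acta2, with sums of 1230 to 1373 CPM in WT and 1049 to 1235 CPM in the mutants. Of 5 epicardial markers, 1 rose and 2 fell, and the sums were narrowly apart, at 245.8 to 274.0 CPM in WT and 187.4 to 245.0 CPM in the mutants. The 5 macrophage markers had 1 higher call, in Lyz2, with sums of 63.9 to 79.7 CPM in WT and 69.3 to 88.4 CPM in the mutants. None of the 5 platelet markers was called, with sums of 16.2 to 18.6 CPM in WT and 13.6 to 17.75 CPM in the mutants. Of the 4 tendon and fibrous tissue markers, 3 were tested and the tendon factor Scx was called lower, from 11.1 ± 0.636 CPM in WT to 6.13 ± 0.898 CPM in the mutants (SD, n = 4 each), while Thbs4, known from tendon, was higher. The sums of the tendon list were 40.5 to 54.6 CPM in WT and 40.9 to 52.6 CPM in the mutants. They include Chad, at 0.549 to 1.16 CPM in the libraries with little airway RNA and 6.83 to 16.3 CPM in the others. The sums of 5 erythroid markers, none of them called, were apart, at 1654 to 3194 CPM in WT and 1014 to 1540 CPM in the mutants. The 6 neuron and glia markers (15.0 to 29.8 CPM in WT, 17.5 to 29.5 CPM in the mutants) had no call. Of the 5 thymocyte markers, with sums of 0.925 to 2.42 CPM in WT and 0.930 to 3.41 CPM in the mutants, only 1 was tested. It was not called. Of 6 cardiomyocyte markers 1 was called lower, with sums of 27400 to 30570 CPM in WT and 23000 to 28440 CPM in the mutants, and 3 of the 4 mutant sums lay below every WT sum. The 6 airway markers had no call, with sums of 1.30 to 481 CPM in WT and 0.698 to 725 CPM in the mutants. No marker was at 0 in every library, and the sums of the 6 cartilage markers were 36.9 to 55.4 CPM in WT and 33.7 to 63.1 CPM in the mutants. The part of any of these cell types in the values of the 9 genes was not tested.

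Genes whose products bind or modify the family, genes of other proteins with the repeat, and Comp were read from 7 lists. Together they are called partner genes here and number 89, with 79 of them tested. Of these, 4 rose and 10 fell, 17.7% in all against 13.2% of all tested genes, and their median log2 fold change was -0.01. For each list below, the shares over all tested genes are 5.75% higher and 7.49% lower. Counts in single lists are small, and nothing is read from them. Among 14 thrombospondin receptors, 3 fell and none rose, with a median of -0.03. The fatty acid transporter and thrombospondin receptor Cd36 was at 475, 499, 421 and 456 CPM in WT replicates 1 to 4 and at 385, 415, 350 and 376 CPM in the mutants. Every mutant heart was below every WT heart (-0.28 ± 0.06, adjusted p = 0.0071, edgeR's quasi-likelihood test). The heparan sulphate proteoglycan Sdc4 fell as well (-0.27 ± 0.06, adjusted p = 0.0076), and so did the integrin subunit Itgav (-0.19 ± 0.04, adjusted p = 0.0085), which was named after its values were seen. The other main thrombospondin receptor, Cd47, was at 63.5 ± 3.53 CPM in WT and 57.1 ± 3.44 CPM in the mutants (-0.15 ± 0.05, adjusted p = 0.069).

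Among 8 soluble and matrix ligands of thrombospondins, 2 fell and none rose. The vascular growth factor Vegfa was at 554, 598, 540 and 577 CPM in WT replicates 1 to 4 and at 419, 397, 315 and 339 CPM in the mutants, clearly apart (-0.63 ± 0.09, adjusted p = 0.0025). The growth factor Pdgfb went from 65.1 ± 5.49 to 45.6 ± 1.81 CPM (SD, n = 4 each; -0.51 ± 0.06, adjusted p = 6.4e-05, edgeR). The latent growth factor Tgfb1 was not called (-0.12 ± 0.07). Among 9 spondin partners, 2 lipoprotein receptors fell and none rose. These were Vldlr (-0.29 ± 0.07, adjusted p = 0.023), not called without any of the 4 WT libraries or mutant replicate 2 or 4 (adjusted p up to 0.095), and Lrp8 (-0.39 ± 0.12, adjusted p = 0.038), not called without any of the 4 WT libraries or mutant replicate 1, 2 or 4 (adjusted p up to 0.11). The amyloid precursor App, to which F-spondin binds, was at 466 ± 11.2 CPM in WT and 461 ± 8.11 CPM in the mutants (-0.02 ± 0.04).

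Of 13 microfibril partners of Thsd4, 1 fell and none rose, with a median of 0.05. This was Efemp2 (fibulin-4, -0.17 ± 0.05, adjusted p = 0.042), not called without WT replicate 2, 3 or 4 or any of the 4 mutant libraries (adjusted p up to 0.11), nor with DESeq2, limma-voom, library totals or no filter on low counts, and in all not called in 14 of 19 alternatives. Fibrillin, Fbn1, was at 467 ± 74.1 CPM in WT and 468 ± 14.8 CPM in the mutants. The enzymes that glycosylate the repeat had 1 higher call among 5 tested. Dpy19l3, a mannosyltransferase that acts on the tryptophans of the repeat, was at 10.4, 9.49, 10.5 and 10.3 CPM in WT replicates 1 to 4 and at 12.3, 13.3, 13.1 and 14.2 CPM in the mutants. All mutant hearts were above all WT hearts (0.37 ± 0.08, adjusted p = 0.0052, edgeR's quasi-likelihood test). B3glct, which adds glucose to the O-linked fucose of the repeat, was at 0.22 ± 0.07 (adjusted p = 0.054).

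Of 38 other proteins with the repeat, 29 were tested, 3 rose and 2 fell, with a median of 0.00. The adhesion receptor Adgrb2 went from 17.7 ± 1.57 to 23.0 ± 2.51 CPM (SD, n = 4 each; 0.37 ± 0.08, adjusted p = 0.0078, edgeR). The guidance gene Sema5a (0.25 ± 0.07, adjusted p = 0.027) was not called without WT replicate 1 or 3 or mutant replicate 1, 3 or 4 (adjusted p up to 0.076). The netrin receptor Unc5a (0.46 ± 0.13, adjusted p = 0.027), named after its values were seen, was not called without WT replicate 1, 3 or 4 or mutant replicate 1, 3 or 4 (adjusted p up to 0.078). Its exons overlap those of Hk3 on the opposite strand, by 34 bases at the largest exon overlap, and Hk3 had at most 34 counts. The matricellular gene Ccn1, known from vessel development, fell the most of the partner genes called. It was at 73.3, 78.1, 90.1 and 75.5 CPM in WT replicates 1 to 4 and at 36.9, 43.6, 44.8 and 44.6 CPM in the mutants, with no overlap (-0.90 ± 0.08, adjusted p = 4.3e-05). Papln fell too (-0.40 ± 0.09, adjusted p = 0.0075). Ccn2, the relative of Ccn1, was at 247 ± 50.7 CPM in WT and 126 ± 31.4 CPM in the mutants (SD, n = 4 each). Its log2 fold change of -0.97 ± 0.24 did not pass (adjusted p = 0.051), although the genotypes did not overlap, and it passed with DESeq2, with a filter at a mean of 1 CPM and without mutant replicate 1 (adjusted p = 0.049). It was named after its values were seen. The thrombospondin outside the set, Comp, was scarce, at 4.92 ± 0.791 CPM in WT and 5.71 ± 0.452 CPM in the mutants (0.21 ± 0.13, adjusted p = 0.35, edgeR). With Xist as a covariate, Pdgfb, Papln and Ccn1 were still called and the other called partner genes named here were not. Xist was at 1.25 to 1.56 CPM of library totals in WT and 1.55 to 1.98 CPM in the mutants. That fit therefore cannot tell Xist and genotype well apart, and nothing is read from the lost calls.

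**Figure D5:**
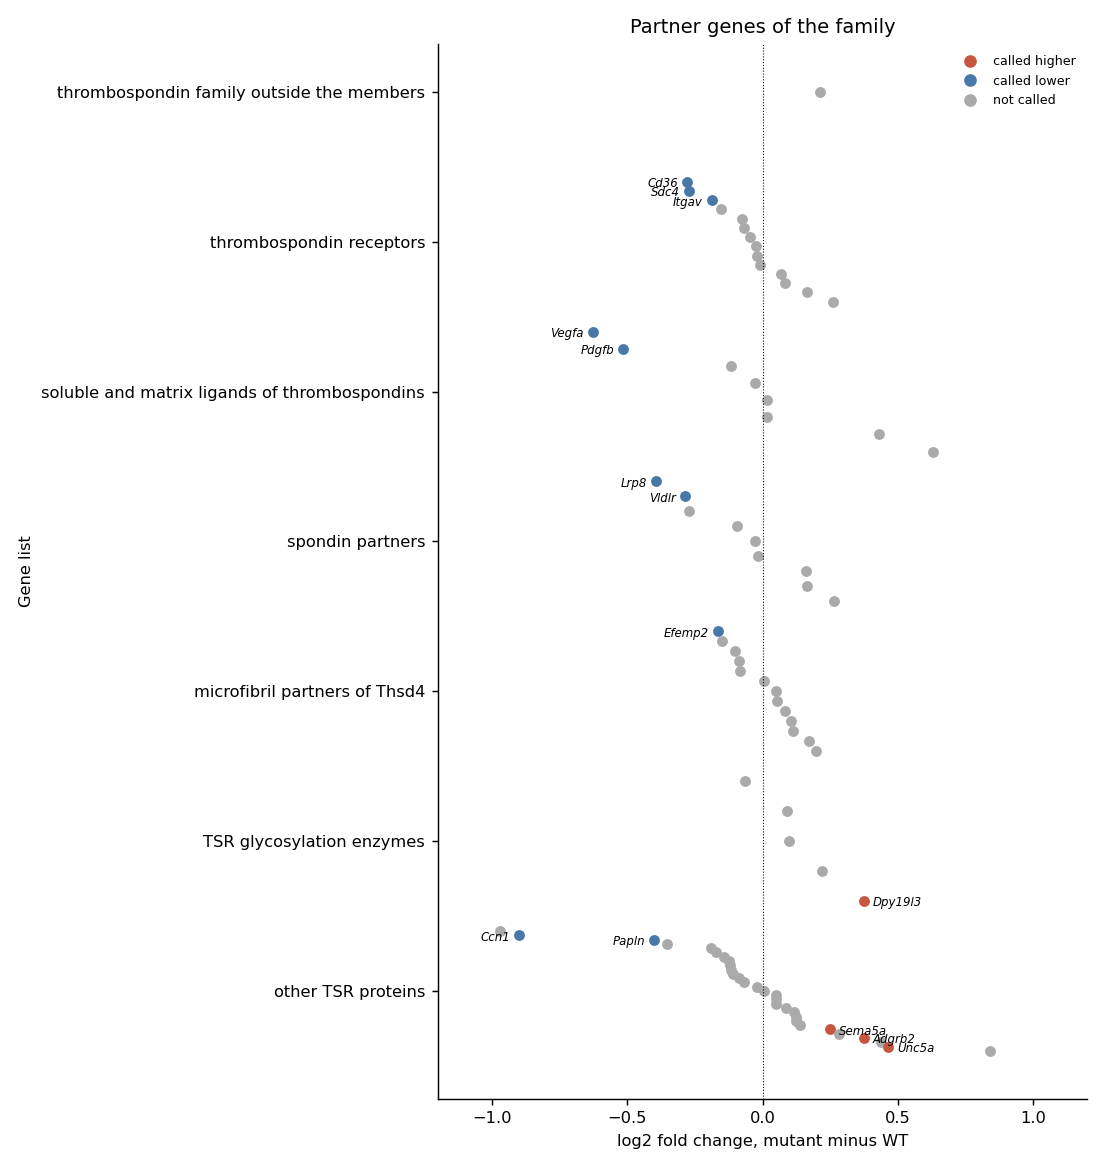
Log2 fold change, mutant minus WT, of the 79 tested partner genes by list, with genes called higher in red, called lower in blue and not called in grey. Among the called genes, those of the receptor, ligand, spondin partner and microfibril lists lie below 0, and those of the glycosylation list lie above 0.

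Patterns over the 8 libraries were compared among 11149 tested genes whose mean reached 5 CPM and which had counts in every library. Xist, Y-linked genes and symbols made of Gm and digits, ending in Rik or holding -ps were left out. The genes most like a member were found by the root mean square difference in log2 CPM, each gene measured from its WT mean. For Spon1 they were the thioredoxin-binding arrestin Txnip (root mean square difference 0.0806 on the log2 scale), the transmembrane protein Flrt2 (0.0979) and the arrestin-domain gene Arrdc4 (0.103), with log2 fold changes of 0.76, 0.63 and 0.74. For Thsd7a they were the angiopoietin ligand Angpt1 (0.121), Gprin3 (0.139) and Unc13c (0.141), with log2 fold changes of 0.93, 0.87 and 0.93. Spon1 and Thsd7a themselves were 0.257 apart on that scale. Gprin3 and Unc13c were under 5 CPM in every WT library (WT means 4.6 and 4.3 CPM). They reached the mean of 5 CPM only through the mutants (means 8.4 and 8.2 CPM). Spon1 was highest in mutant replicate 2 and Thsd7a in mutant replicate 3. Among the mutants Thsd7a was lowest in replicate 4, and Spon1 was about equally low in replicates 3 and 4 (198.9 and 198.1 CPM). The measure ranks genes mainly by the size of their genotype difference and is a description of these libraries.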

How the data were processed

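RNA from whole hearts was sequenced from 8 libraries, 4 WT and 4 mutant, prepared with a TruSeq RNA kit, per the labels' protocols. Trimmomatic 0.36, STAR 2.5.2b, featureCounts and Subread 1.5.2 are named in the submitters' processing notes, with the build GRCm38 (mm10). The authors deposited unnormalized read counts for each gene, and no value differed between the library files and the series table. Header names of the library files start with "Male". How strand was handled and which annotation release was used remain not given in the sources used here. Besides Thbs1, Thbs3 and Unc5a, the named genes Itgav, Ccn2, Txnip and Angpt1 share exon bases with opposite-strand genes. Those neighbours had at most 4, 63, 18 and 14 counts in a library, in that order. Symbols came from GENCODE M21 for 48970 of 49315 genes.

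Genes were kept by filterByExpr (minimum count 10, 16372 genes), scaled by TMM and compared with the robust quasi-likelihood test (edgeR 4.0.16, R 4.3.3; genotype the single term), Benjamini-Hochberg adjustment over all genes and a threshold of 0.05. Pairs of libraries within a genotype differed by more than sampling noise (chi-square per degree of freedom 2.87 to 9.18). The members and lists were chosen with earlier results of these data known. Named by rule were the 9 members, Chd4, up to 2 called genes per list and direction by adjusted p, and the 3 genes most like Spon1 and most like Thsd7a. Marker genes, Xist and genes with overlapping exons were named where they stand beside a result. Outside this rule, Itgav, Unc5a and Ccn2 were named, and so were Cd47, Tgfb1, App, Fbn1, B3glct and Comp, which were not called. Alternatives were DESeq2 1.42.0, limma-voom (limma 3.58.1), RLE scaling, library totals, other filters, each library left out, the replicate number as a block, an airway score or Xist as a covariate, and fits within libraries with and without airway RNA.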

Additional observations from a re-analysis of the deposited data

Results flagged for a closer look

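Among the 9 members and the other genes named, 62 groups of 4 libraries were examined for a library far from the other 3, and chance marks about 1 in 20 groups. Thbs3 was at 33.3 CPM in WT replicate 2 and between 41.6 and 43.1 CPM in the other 3 WT hearts. Dpy19l3 was at 9.49 CPM in WT replicate 2 and between 10.3 and 10.5 CPM in the other WT hearts. Adgrb2 was at 26.7 CPM in mutant replicate 1 and between 21.4 and 21.97 CPM in the other mutants. Ccn1 was at 36.9 CPM in mutant replicate 1 and between 43.6 and 44.8 CPM in the other mutants.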

How the results depend on the processing

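Over 19 alternatives, Spon1 and Thsd7a were called higher in each. The set was chosen for these genes on this same contrast and these libraries, so nothing is read from those calls. Thbs4 and Thbs3 had another call in 9 alternatives each. With each library left out in turn, the log2 fold change ranged from 0.69 to 0.78 for Spon1, 0.98 to 1.09 for Thsd7a, 0.36 to 0.50 for Thbs4, -0.39 to -0.28 for Thbs3 and -0.43 to -0.26 for Thbs1. It ranged from -0.06 to 0.06 for Spon2, -0.12 to 0.13 for Thsd7b, -0.05 to 0.05 for Thsd4 and -0.04 to 0.09 for Thbs2. These fits called 2 to 3 members higher and 0 to 1 lower, 2 to 5 partner genes higher and 7 to 10 lower, and 579 to 850 genes higher and 899 to 1137 lower over all genes, against 942 and 1226. The lowest count of higher genes was without WT replicate 1. Partner genes higher numbered 4 with all libraries and 2 without WT replicate 1 or 3 or mutant replicate 3 or 4.

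With library totals, 1856 genes were higher and 858 lower, and 0 members were called lower. With no filter on low counts 9 partner genes were higher, and with the airway score as a covariate 7 were. Where Scgb3a2 reached 10 CPM, 609 genes were called higher, and the log2 fold change was 0.64 for Spon1, -0.11 for Thbs1 and -0.12 for Thbs2. In the other 3 libraries, 595 genes were higher and 812 lower, 9 partner genes higher and 6 lower, with 0.86 for Spon1, 0.11 for Spon2, 0.46 for Thsd7b, 0.18 for Thsd4, -0.69 for Thbs1, 0.36 for Thbs2 and -0.020 for Thbs3. With Xist as a covariate, itself between 1.25 and 1.98 CPM, 117 genes were higher and 149 lower, 0 members were lower, 0 partner genes were higher and 3 lower, and the log2 fold change was 0.84 for Spon1, 0.21 for Spon2 and 0.31 for Thsd7b. The cause of these shifts was not tested. By CPM with no length, the WT rank was 4 for Thbs4, 5 for Spon2, 3 for Thbs1, 2 for Spon1, 7 for Thbs3 and 6 for Thsd4, where the length accounts for the move.

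Libraries with the same replicate number did not deviate together throughout (correlations -0.45, 0.73, 0.48 and -0.02), and 3 of 8 libraries matched best with their own number, so the numbers were not taken to pair the hearts. With the replicate number as a block, 1023 genes were higher and 1432 lower, and 3 members were higher and 1 lower. Depth limits Thsd7b most, with 40 to 60 counts per library.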
